A study of Mus musculus with 5 samples.

Results

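The Ifi200 or PYHIN genes are a cluster of interferon-inducible genes on mouse chromosome 1, and 10 of them, taken by symbol from the 32285 genes of the count files, are described here in every cell class of the libraries: Aim2, Ifi203, Ifi204, Ifi206, Ifi207, Ifi208, Ifi209, Ifi211, Ifi213 and Mndal. All 10 symbols were found. The counts come from single-nucleus RNA sequencing (snRNA-seq) of 5 libraries, each from 1 mouse carrying the Tmem119-creERT2 driver, a tamoxifen-inducible Cre that acts mainly in microglia and brain macrophages. In 2 libraries (R241E) the mice were heterozygous for a conditional Cgas allele encoding R241E, which weakens the binding of cGAS to nucleosomes and which Cre switches on; in 3 (WT) both Cgas alleles were wild type. According to its methods the study made the allele in C57BL/6J zygotes and induced it by tamoxifen injections into young adult mice. A treatment text on H151 and DMSO in aged mice stands in the labels of all samples, but no sample is assigned to either, and for the controls the study's results name heterozygous mice where its methods and the sample titles name wild type, so the titles were followed. The samples are labelled as hippocampus and as microglia, while the extraction text names brain tissue and a sort on DAPI and against NeuN, with Olig2 added in the methods.

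Typical PYHIN proteins carry an amino-terminal pyrin domain, through which they bind other proteins, and one or more HIN domains, which bind DNA. Not every protein of the cluster has both. AIM2 is a cytosolic sensor of double-stranded DNA that recruits the adaptor ASC and caspase-1 into an inflammasome, a complex that matures interleukin-1β and opens gasdermin D pores. IFI204 has been described as a DNA sensor that signals through STING, the adaptor that also lies downstream of cGAS, and most genes of the cluster are induced by type I interferon, to which microglia respond strongly.

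The 10 genes span 593.3 kb of chromosome 1 (chr1:173349547-173942866, assembly GRCm38.p6, the mm10 build to which the authors mapped). From low to high coordinates their order was Aim2, Ifi206, Ifi213, Ifi209, Ifi208, Ifi207, Ifi204, Mndal, Ifi211 and Ifi203, all annotated as protein coding. Aim2 (ENSMUSG00000037860) occupies 173349547 to 173466040 on the plus strand, and Ifi204 (ENSMUSG00000073489), the member with the smallest p in microglia, occupies 173747293 to 173767069. The Aim2 model shares 18593 bases with Cadm3, a neuronal adhesion gene, so Aim2 counts are uncertain in classes that express Cadm3.

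RefSeq promoter windows (250 bases before to 50 after each start) were found for 9 of the 10 genes, as 11 entries; Ifi204 had none. They were searched on both strands for the core of the interferon-stimulated response element (ISRE), which is GAAA, any 2 bases and GAAA again, a site of interferon regulatory factors, and for the gamma-activated site TTCNNNGAA. The ISRE letters were present in 8 of the 11 member windows (7 of the 9 genes), against 3.443% of 32851 mouse promoter windows. The gamma-activated site was present in 0 of the 11, against 8.298%. Several member windows are close copies of one another, so their matches are not independent. The 100 bases before the start are shown for 7 genes that differ in what follows, first those that were near 0 in WT microglia and far higher in R241E, then Aim2, then the pair that stayed near 0 in microglia. Each runs 5′ to 3′ on the gene's own strand, from RefSeq on GRCm38.p6, with the ISRE letters in capitals.
Ifi206, chr1:173491319-173491418, minus strand: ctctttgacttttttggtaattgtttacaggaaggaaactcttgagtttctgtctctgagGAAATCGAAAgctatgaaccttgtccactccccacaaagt
Ifi207, chr1:173741810-173741909, minus strand: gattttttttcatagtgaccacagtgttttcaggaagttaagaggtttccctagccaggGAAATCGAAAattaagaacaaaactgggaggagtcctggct
Ifi211, chr1:173913047-173913146, minus strand: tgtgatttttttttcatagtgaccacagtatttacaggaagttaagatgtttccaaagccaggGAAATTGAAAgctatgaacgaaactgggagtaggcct
Ifi209, chr1:173630759-173630858, plus strand: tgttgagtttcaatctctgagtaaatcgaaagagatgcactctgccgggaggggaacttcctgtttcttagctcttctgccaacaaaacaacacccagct
Aim2, chr1:173420504-173420603, plus strand: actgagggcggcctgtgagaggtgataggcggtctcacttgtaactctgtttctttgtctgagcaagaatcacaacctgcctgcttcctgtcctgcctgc
Mndal, chr1:173880188-173880287, minus strand: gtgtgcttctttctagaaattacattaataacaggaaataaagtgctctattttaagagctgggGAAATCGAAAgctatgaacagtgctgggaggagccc
Ifi203, chr1:173942493-173942592, minus strand: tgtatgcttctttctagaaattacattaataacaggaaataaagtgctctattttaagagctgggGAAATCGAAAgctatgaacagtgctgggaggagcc
In Ifi206, Ifi207, Mndal, Ifi211 and the second Ifi203 entry the first base of the match lay between 41 and 35 bases before the start, and in Ifi213 and Ifi208 it lay 73 and 58 bases before it. Aim2, Ifi209 and the first Ifi203 entry held no exact match. The closest stretch differed at 1 of the fixed letters in Aim2 and in Ifi209 and at 2 in the first Ifi203 entry, and 31.36% of all promoters held a stretch with at most 1 difference before the start. Over the 300 bases the Mndal and second Ifi203 windows were 94% identical, as were those of Ifi213 and Ifi208, and those of Ifi207 and Ifi211 87%, whereas Aim2 was 48.67% to 58.33% identical to the others. The Mndal and Ifi203 windows thus carry the same ISRE letters as those of Ifi206 and Ifi207, and such a match is a description of sequence, not a measured site.

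Close copies limit the counting of single members. Among all 90-base stretches of each gene's transcripts (GENCODE vM39), the share also found in a transcript of another gene was 0% for Aim2 and 1.617% for Ifi207, from 3.608% to 12.65% for Ifi213, Ifi203, Ifi208, Mndal, Ifi206 and Ifi204, 18.89% for Ifi209, shared with Ifi214, and 54.61% for Ifi211, shared most with Ifi205. In the last 400 bases of the transcripts the shares were 73.31% for Ifi211, 31.51% for Ifi209 and 0% for Aim2, Ifi204 and Ifi207. By transcript sequence Ifi211 and Ifi209 are therefore the hardest to tell from other genes. How introns and strand entered the counts is not given in the sources used here. Sequences outside the transcripts were not compared, so these shares do not measure how certain each member's counts from nuclei are.

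The files held 9748 nuclei, from 1381 to 2490 per library with 4183709 to 10130667 unique molecular identifiers (UMIs, counts of single captured RNA molecules), and 9505 nuclei passed the study's limits. Clustering and marker genes gave 5359 microglia (998 and 519 in R241E, 924, 1467 and 1451 in WT), in which all 10 microglia markers were detected in every library, and the border-associated macrophages (106 and 44 in R241E, 53, 59 and 80 in WT), the macrophages of meninges and vessels. The driver is described as acting in brain macrophages too. Class names mean that nuclei resemble the class. Markers of other cells in the microglia differed in part between the genotypes: border-associated macrophage markers summed to 101 and 143 CPM (UMIs of a gene per 1000000 UMIs of the summed nuclei) in R241E and 212 to 243 CPM in WT, lymphocyte markers to 1232 and 1224 against 834 to 971 CPM, monocyte or neutrophil markers to 750 and 650 against 562 to 586 CPM, and oligodendrocyte markers to 227 and 255 against 134 to 159 CPM. From 0 to 4 of the 10 macrophage markers and 2 to 6 of the 14 lymphocyte markers were at 0 in these sums, and the role of such RNA in the results was not tested. Median depth in microglia was 3091 and 2589 UMIs in R241E and 2061 to 2616 UMIs in WT, so R241E replicate 2 lay within the WT range and replicate 1 above it. Libraries shared 13 barcodes in all, at most 2 in any pair. Intervals below cover counting error only.

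In WT microglia the family was almost entirely Aim2, and in R241E microglia 7 other members were added to it. Ifi204, Ifi206, Ifi207, Ifi208, Ifi209, Ifi211 and Ifi213 were at 0 to 18.6 CPM in the WT libraries but at 11.1 to 477 CPM in the R241E ones, with log2 fold changes of 4.19 to 6.18. Aim2 itself differed little, and Ifi203 and Mndal stayed near 0 in both genotypes. Summed over the 10 genes, the level was 1499 and 1324 CPM in R241E and 345, 341 and 375 CPM in WT. By edgeR's quasi-likelihood test with Benjamini-Hochberg adjustment over 12693 genes, called under 0.05, 8 of the 10 members were called higher in R241E and 0 lower, where 5.77% of all genes tested were called higher and 3.17% lower. The R241E and WT libraries did not overlap, with R241E higher, for 9 of the 10, against 19.8% of genes tested. Ifi208, Ifi211, Ifi213 and Mndal passed the filter on low counts only through the R241E libraries, and Ifi203 did not pass it.

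**Figure D1:**
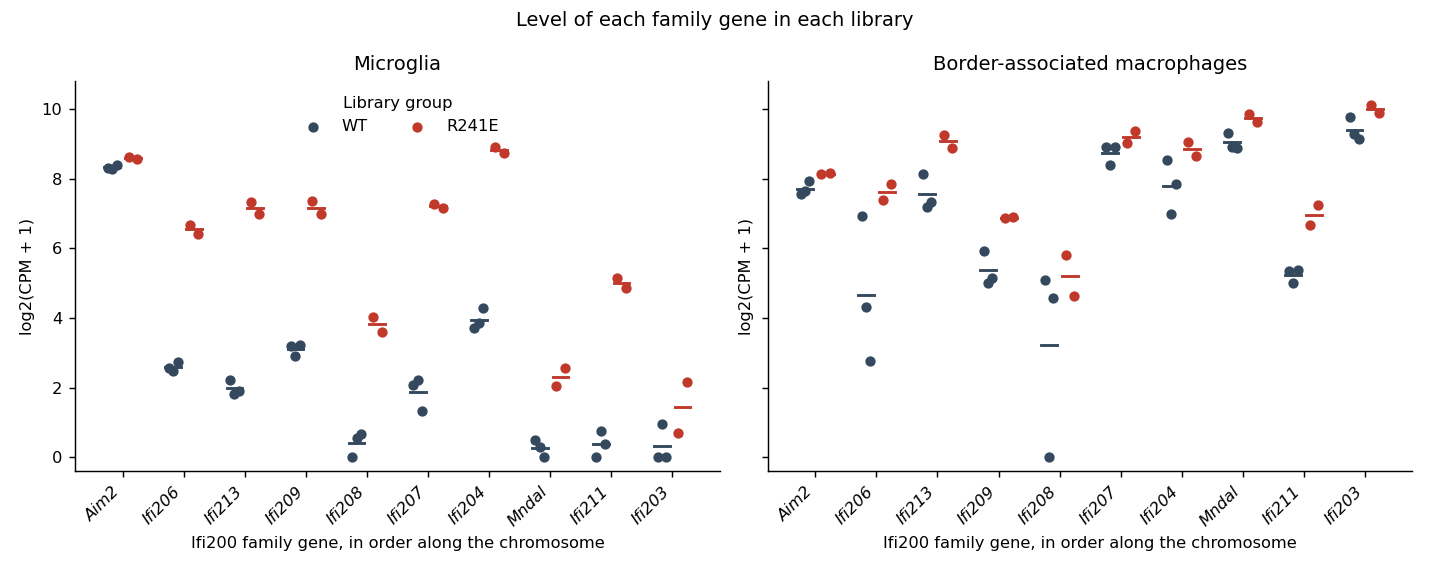
Level of each family gene, as log2(CPM + 1), in each library of microglia (left) and border-associated macrophages (right); points are libraries, WT in dark blue and R241E in red, bars are group means, and genes run in chromosome order. In microglia the 2 R241E points lie above all 3 WT points for every gene except Ifi203, with the smallest gap for Aim2, while in the macrophages most genes are high in both groups.

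Ifi204, the candidate DNA sensor, reached 477 and 423 CPM in the R241E libraries against 12.2, 13.4 and 18.6 CPM in WT. The ratio of the means was 30.6, and of all genes tested Ifi204 had the smallest p (log2 fold change 4.91 ± 0.14 SE, edgeR adjusted p = 5.16e-12). The UMIs came from 549 and 225 R241E nuclei and from 19, 34 and 37 WT nuclei.

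Ifi207 and Ifi213 had similar fold changes from lower starting levels. Ifi207 had 483 and 203 UMIs in R241E (152 and 141 CPM) against 8, 16 and 5 UMIs in WT (at most 3.69 CPM), a log2 fold change of 5.65 ± 0.21 (edgeR adjusted p = 3.57e-11). Ifi213 was at 158 and 124 CPM against 3.65, 2.54 and 2.70 CPM (log2 fold change 5.61 ± 0.20, edgeR adjusted p = 3.57e-11). Both therefore went from a few UMIs per library in WT, 5 to 16, to 179 or more in R241E.

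Ifi206 and Ifi209 had smaller fold changes. Ifi206 was at 101 and 83.3 CPM in R241E against 4.86, 4.62 and 5.70 CPM in WT (log2 fold change 4.19 ± 0.19, edgeR adjusted p = 3.64e-10). Ifi209 was at 162 and 126 CPM against 8.10, 6.46 and 8.41 CPM (log2 fold change 4.25 ± 0.17, edgeR adjusted p = 1.20e-10). For both genes the WT libraries lay close together and far below the R241E libraries.

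Ifi208 and Ifi211 were all but absent from WT microglia. Ifi208 had 0, 2 and 2 UMIs in the WT libraries and 49 and 16 in the R241E libraries (15.4 and 11.1 CPM), a ratio of pooled CPM of 35.7 with a 95% counting interval of 13.3 to 135 (log2 fold change 4.97 ± 0.52, edgeR adjusted p = 8.39e-06). Ifi211 had 0, 3 and 1 UMIs in WT and 110 and 40 in R241E (34.7 and 27.8 CPM), a ratio of 82.3 with an interval of 31.5 to 306 (log2 fold change 6.18 ± 0.41, edgeR adjusted p = 4.51e-08). With so few WT molecules the size of either fold is known only within these wide intervals.

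Mndal and Ifi203 remained at a few UMIs per microglia library. Mndal was called at a log2 fold change of 3.97 ± 0.82 (edgeR adjusted p = 0.00496), but on 10 and 7 UMIs in R241E and 1, 1 and 0 in WT. The 7 UMIs of R241E replicate 2 came from 2 nuclei, 6 of them from 1 nucleus, that held no UMI of any microglia marker. Without the 8 microglia that lack a marker UMI, a check added after seeing the data, Mndal no longer passed the filter and 7 members were called. The same 7 was reached without the nuclei with the highest doublet scores and with library sizes without interferon genes, where Mndal also missed the filter. It missed the filter too in nuclei thinned to 1000 UMIs, and without either R241E replicate, WT replicate 2 or WT replicate 3. Ifi203 had 2 and 5 UMIs in R241E and 0, 4 and 0 in WT, a ratio of pooled CPM of 3.84 with an interval of 0.977 to 17.9, and the 5 UMIs lay in the same 2 nuclei without marker UMIs.

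Aim2 was the exception in the other sense, being expressed in WT. It was at 394 and 380 CPM in R241E against 312, 308 and 337 CPM in WT. The groups did not overlap, but the difference was small, a log2 fold change of 0.27 ± 0.09, and was not called (edgeR adjusted p = 0.0919). It passed without WT replicate 3 (edgeR adjusted p = 0.0303) and with the mouse number as a block (edgeR adjusted p = 0.00913), with log2 fold changes of 0.22 to 0.30 over all settings tried. Cadm3, whose gene model overlaps that of Aim2, was at 0 to 2.52 CPM in these sums.

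The make-up of the family transcripts, which no scaling between libraries touches, was thus different in the 2 genotypes. Aim2 gave 90.3% ± 0.34 (SD, n = 3) of family UMIs in WT microglia and 27.5% ± 1.68 (SD, n = 2) in R241E. Ifi204 went from 4.14% to 31.9%, Ifi207 from 0.808% to 10.4%, Ifi209 from 2.16% to 10.1%, Ifi213 from 0.841% to 9.97% and Ifi206 from 1.43% to 6.53%. The shares of 9 of the 10 genes did not overlap between the genotypes, Ifi203 being the exception. Because shares are parts of a whole, these are not separate results, and no share over other genes stands beside the count. The Aim2 share was lower in R241E although its CPM was not. Mndal gave only 0.289% against 0.0618%, and in R241E replicate 2 this rested on 7 UMIs from 2 nuclei without a microglia marker UMI.

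**Figure D2:**
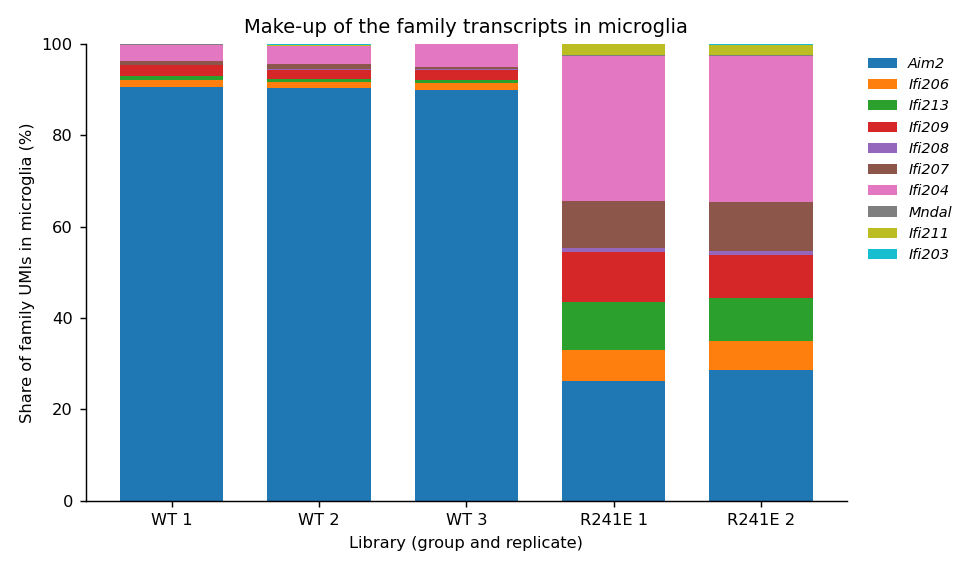
Share of each family gene among all family UMIs of microglia (%, stacked to 100), 1 bar per library, genes in chromosome order from the bottom. Aim2 fills 89.9% to 90.6% of the WT bars and 26.3% and 28.7% of the R241E bars, where Ifi204 holds 31.9% on average.

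To ask whether more nuclei carried family transcripts, each nucleus was thinned to 1000 UMIs, which left out 5 and 22 shallower R241E nuclei and 22, 21 and 63 WT nuclei. A UMI of any member was then found in 61.3% and 57.5% of R241E microglia and in 26.1%, 27.6% and 29.97% of WT microglia, a difference of 31.6 percentage points (two-sided exact permutation test, p = 0.1, the smallest that 2 against 3 libraries allow). Unthinned, the shares were 86.6% and 80.5% against 49.3% to 55.0%. Over the libraries the thinned share was 0 to 2.29% in astrocytes, 0 to 4.62% in fibroblasts and 3.08% to 14.1% in oligodendrocytes. It was 7.30% to 12.4% in neurons, 30.3% to 53.3% in mural cells and 72.9% to 97.7% in border-associated macrophages. Median depth before thinning was 4422.5 (R241E) and 3711 UMIs (WT) in astrocytes against 2886 and 2333 UMIs in microglia. How far RNA from other nuclei entered these shares was not tested.

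Single genes divided in the same way. For Ifi204 the thinned share was 30.8% and 25.4% in R241E and 1.11% to 1.59% in WT, and unthinned 55.0% and 43.4% against 2.06% to 2.55%. For Aim2 the thinned share was 30.7% and 31.0% against 23.7% to 27.9%. UMIs of at least 2 different members were found in 26.5% and 22.1% of thinned R241E nuclei and in 0.665%, 0.968% and 1.44% of WT nuclei, and of 5 or more members in 20 and 8 R241E nuclei and in 0, 1 and 1 WT nuclei.

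Nuclei of the 2 genotypes fell largely into different clusters, although no PYHIN gene was used for clustering. Of R241E microglia 85.0% lay in 3 clusters richer in R241E, and of WT microglia 92.4% in the other 2. In a cluster that held 37.3% of WT and 10.7% of R241E microglia, Ifi204 was still at 184 and 166 CPM in R241E against 5.79, 3.91 and 7.98 CPM in WT. In the largest WT cluster, which held 55.0% of WT and 4.35% of R241E microglia, it was at 176 and 159 against 5.92, 6.07 and 7.27 CPM. Ifi204 was thus higher in R241E within clusters that both genotypes shared, where Ifi207 was low in both, at 0 to 27.6 CPM in R241E against 0 to 1.30 CPM in WT.

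The R241E-rich clusters held the highest levels. In the cluster with 51.0% of R241E and 3.36% of WT microglia, Ifi204 was at 352 and 398 CPM in R241E against 165, 74.8 and 173 CPM in the 21 to 55 WT nuclei per library. In the cluster with 9.16% of R241E and 0.234% of WT microglia, it reached 1726 and 1993 CPM in R241E, Ifi207 reached 768 and 1034 CPM, and the 10 genes together 5348 and 5730 CPM. The leading genes of that cluster included Ifi204, Ifi207, Ifi213 and Ifi209 beside the chemokines Cxcl10 and Ccl12 and the antiviral gene Oas2.

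Family levels were then read against the interferon response of each nucleus, measured by 30 other interferon-stimulated genes. The UMIs of every nucleus were split at random into 2 equal sets, the 30 genes were counted in one set and the family in the other. The lowest group had no UMI of the 30 genes in the set where they were counted. There Ifi204 was at 250 and 81.2 CPM in R241E against 6.05, 7.23 and 12.7 CPM in WT. These values rested on 23 and 7 UMIs in R241E and 3, 5 and 9 in WT. The R241E group held 84 and 89 nuclei, whereas only 24 and 36 R241E nuclei had no such UMI in all their UMIs. In nuclei with 8 or more such UMIs, Ifi204 was at 962 and 902 CPM in R241E. In WT it was at 509, 655 and 993 CPM, on only 9, 13 and 8 nuclei. Of these WT values 1 lay above both R241E values and the other two below, so the rare WT nuclei with a strong interferon response also held Ifi204.

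For Ifi207 the nuclei with no such UMI held 1 and 0 UMIs in R241E and 1, 1 and 0 in WT, too few to compare the genotypes. At intermediate numbers the R241E values lay above the WT values. With none, Ifi207 was at 10.9 and 0 CPM in R241E and 2.02, 1.45 and 0 CPM in WT. With 1 it was at 12.7 and 12.4 against 2.84, 0 and 0 CPM, on 2 and 1 UMIs against 1, 0 and 0. With 2 to 3 it was at 33.2 and 47.5 against 0, 7.0 and 0 CPM, and with 4 to 7 at 85.3 and 45.8 against 15.6, 0 and 0 CPM. With 8 or more it was at 362 and 394 against 218, 308 and 229 CPM. Aim2 showed no such rise, with 154 to 389 CPM over the WT values and 224 to 475 CPM over the R241E values.

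**Figure D3:**
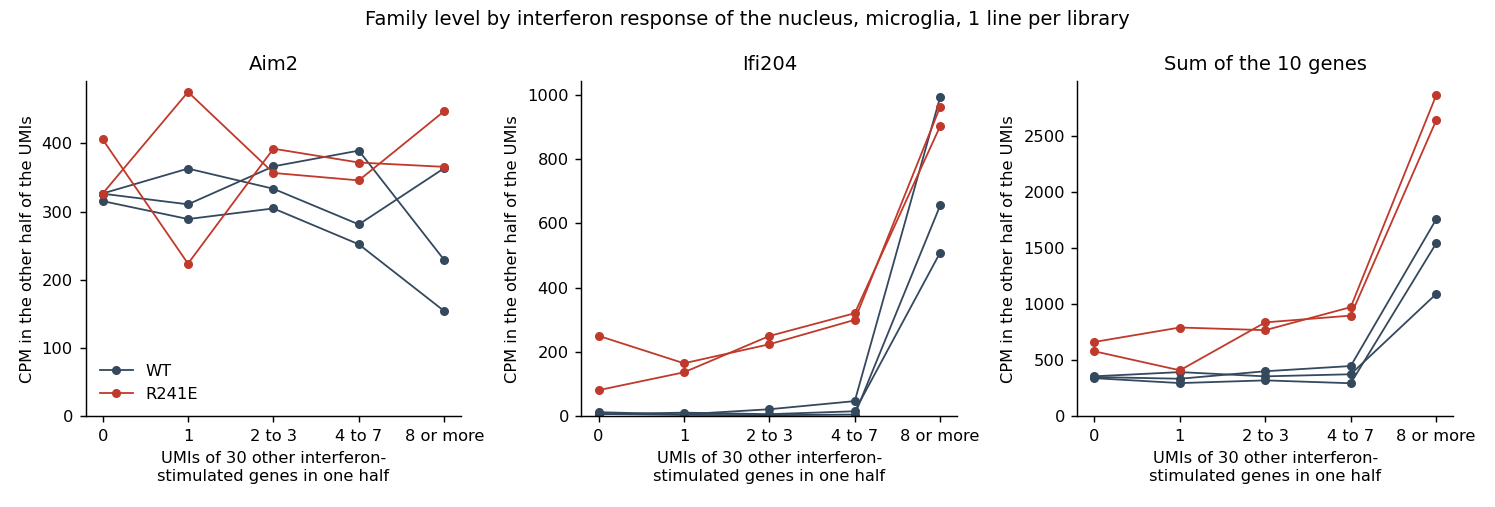
Level in CPM of Aim2, Ifi204 and the 10 genes together (left to right) in microglia grouped by the UMIs of 30 other interferon-stimulated genes, counted in a separate random set of each nucleus's UMIs; 1 line per library, WT dark blue and R241E red. Ifi204 climbs from at most 250 CPM in the lowest group to 509 to 993 CPM in the highest, and Aim2 stays between 154 and 475 CPM. The highest WT points rest on 8 to 13 nuclei each.

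Among microglia with no UMI of the 30 genes in all their UMIs, the family was at 5.04 and 5.98 UMIs per 10000 in R241E and at 3.13, 3.46 and 3.49 in WT. The difference of 2.15 (two-sided exact permutation test, p = 0.1, the smallest possible) rested on 24 and 36 R241E nuclei, 2.40% and 6.94% of those libraries, against 19.2% to 28.9% of the WT libraries.

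Border-associated macrophages held UMIs of 9 of the 10 genes in every library of both genotypes. Their family sum in WT was far higher than that of microglia, but not every gene started higher. Mean WT Aim2 was 209 CPM against 319 CPM in microglia. Ifi206 in WT replicate 3 was at 5.75 CPM, beside 4.62 to 5.70 CPM in WT microglia, but this macrophage value is 1 UMI and imprecise. The family summed to 4392 and 4049 CPM in R241E and to 3073, 1993 and 2249 CPM in WT. As a ratio of mean CPM, Ifi213 was 2.77 times its WT level in macrophages and 47.7 times in microglia, and Aim2 was 1.34 and 1.21 times, but the mean Ifi213 levels lay further apart in macrophages (539 against 195 CPM) than in microglia (141 against 2.96 CPM). Of the 10 members 3 were called higher, Ifi213, Ifi206 and Ifi211, where 0.786% of 3943 genes tested were called higher. For 9 of 10 the R241E libraries lay above all WT libraries, against 11.7% of genes tested. Ifi206, Ifi209 and Ifi211 passed the filter only through R241E, and Ifi208, with 18 and 3 UMIs in R241E and 5, 0 and 4 in WT, did not pass it.

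Ifi213 had the smallest p of the family in these macrophages, with 607 and 472 CPM in R241E and 279, 144 and 161 CPM in WT (log2 fold change 1.52 ± 0.24, edgeR adjusted p = 0.000687). Ifi206 was at 165 and 228 CPM against 120, 18.8 and 5.75 CPM (log2 fold change 2.04 ± 0.50, edgeR adjusted p = 0.0424), so that 1 WT library came close to the R241E libraries. Ifi211 was at 101 and 149 CPM against 39.9, 31.3 and 40.3 CPM (log2 fold change 1.66 ± 0.41, edgeR adjusted p = 0.0473). How many were called moved with single libraries: without WT replicate 2 there were 0 members called, without WT replicate 3 there was 1, without R241E replicate 2 there were 5 and without WT replicate 1 there were 6. Ifi213 was called in 4 of the 5 fits that each left out 1 library, and without WT replicate 2 its log2 fold change was 1.36 (edgeR adjusted p = 0.0580). Ifi206 lost its call without WT replicate 2 (1.68) and without WT replicate 3 (1.48). Ifi211 lost its call in all 5 fits, with log2 fold changes of 1.45 to 2.00.

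Ifi204, the member with the highest level in R241E microglia, was already at 372, 125 and 230 CPM in WT macrophages and at 531 and 401 CPM in R241E (log2 fold change 1.00 ± 0.27, edgeR adjusted p = 0.0816). It passed with limma-voom (adjusted p = 0.0287), without the filter on low counts (0.00241), with the replicate block (0.0191), without R241E replicate 2 (0.00158) and without WT replicate 1 (0.00495), and missed the threshold in the other alternatives, up to an adjusted p of 0.532 with the DESeq2 Wald test. Ifi207 was at 479, 332 and 483 CPM in WT and at 515 and 653 CPM in R241E (log2 fold change 0.42 ± 0.20, edgeR adjusted p = 0.618). In each WT macrophage library Ifi207 was thus above its level in R241E microglia, and Ifi204 below it.

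Ifi203 and Mndal, near 0 in microglia, were abundant here. Ifi203 was at 1107 and 936 CPM in R241E against 865, 627 and 558 CPM in WT (log2 fold change 0.61 ± 0.18, edgeR adjusted p = 0.135). Mndal was at 918 and 786 CPM against 639, 482 and 472 CPM (log2 fold change 0.71 ± 0.18, edgeR adjusted p = 0.0539), and it passed the threshold in several other settings. Together the pair gave 42.5% to 55.7% of the family UMIs of a macrophage library and at most 0.629% of those of a microglia library.

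The remaining members changed less clearly in macrophages. Ifi209 was at 116 and 118 CPM in R241E against 59.9, 31.3 and 34.5 CPM in WT (log2 fold change 1.49 ± 0.40, edgeR adjusted p = 0.0816). Aim2 was at 278 and 283 CPM against 186, 201 and 242 CPM (log2 fold change 0.42 ± 0.24, edgeR adjusted p = 0.710).

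Whether the R241E effects differed between microglia and macrophages was tested directly, as a class by genotype term with library as a block over 10909 genes. Its p-values rest on a spread estimated over all genes together, so their size says little about each gene's own spread between mice. The effect was called larger in microglia for 7 of the 10 members, where 0.513% of genes were called larger and 0.257% smaller. The differences in log2 fold change were 5.16 ± 0.31 for Ifi207 (edgeR adjusted p = 3.32e-58), 3.97 ± 0.35 for Ifi213 (7.04e-26) and 3.83 ± 0.27 for Ifi204 (2.80e-43), and these 3 passed whichever library was left out. Ifi211 (4.37 ± 0.84), Ifi209 (2.70 ± 0.52), Mndal (2.97 ± 0.76) and Ifi206 (1.97 ± 0.51) were also called. Without R241E replicate 1 these 4 missed the threshold, which left 3 members called, with differences of 3.84 for Ifi211, 2.43 for Ifi209, 3.47 for Mndal and 1.48 for Ifi206. Without WT replicate 1 the Ifi206 difference was 0.18 (edgeR adjusted p = 1), and Mndal also missed the threshold without R241E replicate 2 (2.68), WT replicate 2 (3.12) or WT replicate 3 (2.59) in turn. For Aim2 the difference was -0.18 (edgeR adjusted p = 0.985), and Ifi208 and Ifi203 were not called.

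**Figure D4:**
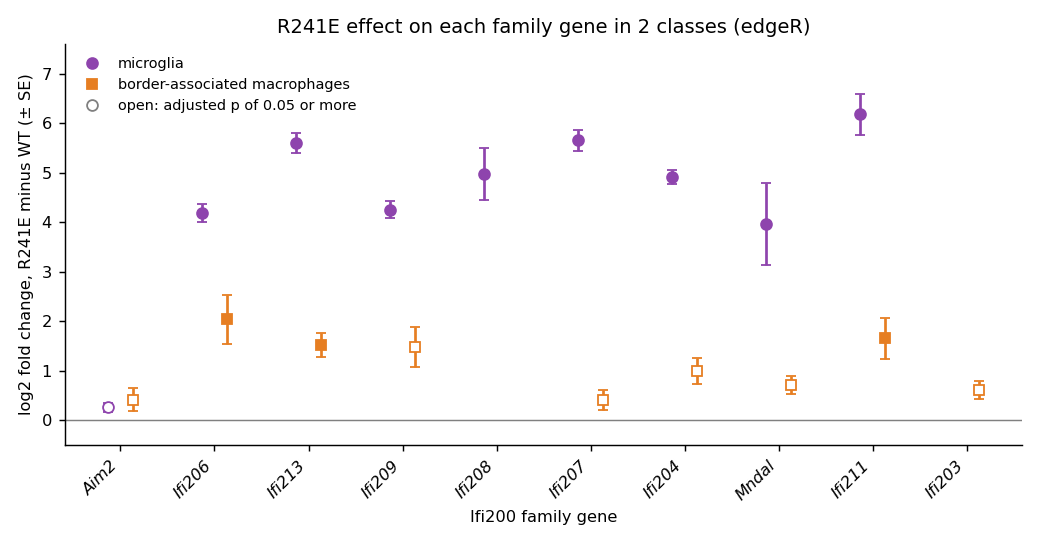
Log2 fold change of R241E against WT with its SE (bars) for each family gene in microglia (purple circles) and border-associated macrophages (orange squares), from edgeR; open symbols have an adjusted p of 0.05 or more, and genes not tested have no symbol. The microglial values lie at 3.97 to 6.18 for 8 genes and at 0.27 for Aim2, and the macrophage values lie between 0.42 and 2.04.

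The classes that could be tested were ordered by the family sum. In WT it was 2438 ± 564 CPM (SD, n = 3) in border-associated macrophages, 526 ± 28.2 in mural cells, 354 ± 18.9 in microglia, 94.8 ± 33.5 in neurons, 65.3 ± 32.2 in oligodendrocytes, 19.9 ± 17.4 in fibroblasts and 12.3 ± 6.59 in astrocytes. The ranges of neurons and oligodendrocytes overlapped, as did those of fibroblasts and astrocytes. In R241E, microglia (1412 ± 123, n = 2) stood above mural cells (885 ± 102) and below macrophages (4221 ± 242). Which genes made the sum differed by class, as the levels per class show.

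**Figure D5:**
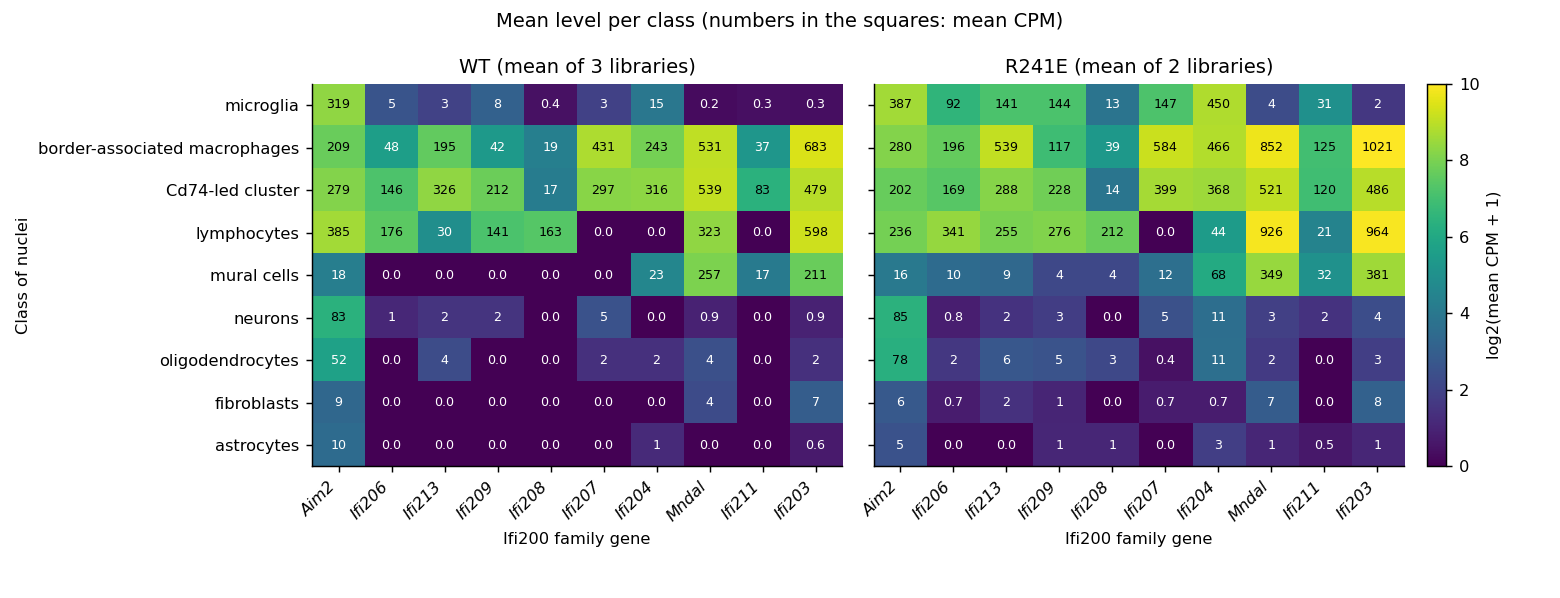
Mean CPM of each family gene (columns, chromosome order) in each class of nuclei (rows), for WT (left, 3 libraries) and R241E (right, 2 libraries); colour gives log2(mean CPM + 1) and the numbers give mean CPM. Ifi203 and Mndal are high in macrophages, lymphocytes, the Cd74-led cluster and mural cells and near 0 in microglia, Ifi207 is at 0 in lymphocytes, and neurons and oligodendrocytes hold mainly Aim2.

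Mural cells, the pericytes and smooth muscle cells of vessels, expressed Ifi203 and Mndal and little else of the family. Ifi203 was at 367 and 395 CPM in R241E against 260, 191 and 181 CPM in WT (log2 fold change 0.90, edgeR adjusted p = 0.323). Mndal was at 374 and 324 CPM against 247, 245 and 281 CPM (log2 fold change 0.44, edgeR adjusted p = 1.00). Libraries of the genotypes did not overlap for these 2 members, against 9.17% of 3860 genes tested, but no gene was called in this class by edgeR, where 176 genes had an unadjusted p under 0.05. The pair made up 77.5% to 91.4% of the family UMIs. Ifi204 was at 103 and 33.6 CPM in R241E against 18.7 to 26.0 CPM in WT and did not pass the filter.

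Lymphocytes numbered 120 and 34 in R241E and 3, 7 and 28 in WT, so no test was made. Their family sum was 3618 and 2932 CPM in R241E and 1809, 2090 and 1555 CPM in WT. Ifi203 and Mndal again gave 55.6% to 59.3% of the UMIs in each library with at least 20 nuclei. Ifi206, Ifi208, Ifi209 and Ifi213 were present. Ifi213 was at 294 and 217 CPM in R241E against 0, 0 and 90.4 CPM in WT. The WT value of 90.4 CPM rested on 5 UMIs, and the zeros came from only 3 and 7 nuclei. Ifi207 had 0 UMIs in every lymphocyte library, which allows up to 10.2 CPM in R241E replicate 1, whereas in border-associated macrophages it was at 332 CPM or more in each library.

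A further cluster, led by the antigen-presentation gene Cd74 and left without a cell type name, held 49 and 32 R241E and 18, 29 and 49 WT nuclei. It expressed the family at 3204 and 2385 CPM in R241E and 3288, 2886 and 1910 CPM in WT, so the genotypes overlapped. Ifi204 (401 and 334 against 339, 378 and 232 CPM) and Ifi207 (464 and 334 against 363, 326 and 200 CPM) overlapped too. No test was made, as WT replicate 1 had under 20 nuclei.

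Of the family, neurons and oligodendrocytes held mainly Aim2, and its values there are uncertain because Cadm3 was also present, at 51.8 to 110 CPM in neurons and 24.3 to 29.5 CPM in oligodendrocytes. Aim2 was at 90.7 and 79.0 CPM in R241E neurons and at 79.2, 68.5 and 103 CPM in WT neurons (edgeR adjusted p = 0.999, where 0.0111% of genes were called higher), with a fold change near 0 whose sign depended on the setting. In oligodendrocytes it was at 67.2 and 89.4 CPM against 41.3, 49.1 and 65.5 CPM (log2 fold change 0.50, edgeR adjusted p = 1.00), where 0.267% of genes were called higher. Ifi204 had 5 and 8 UMIs in R241E neurons and 0 in each WT library, and with 3 counts set as the limit over the WT libraries its level was at least 7.99-fold higher. It was tested only without the filter on low counts (edgeR adjusted p = 0.0119), and sums of neurons can hold RNA from other nuclei, whose share was not tested.

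In astrocytes 0 of 10 members passed the filter, and the family summed to 6.10 to 19.2 CPM, with Aim2 on 2 to 9 UMIs per library and 0 UMIs of Ifi206, Ifi207 and Ifi213 in all 5. Where the term could be fitted, the difference in R241E effect between microglia and astrocytes was called for 0 members by edgeR (0.402% of 12946 genes were called larger in microglia), with 3.59 for Ifi204 (adjusted p = 0.704) and 1.57 for Aim2 (adjusted p = 0.465), and for Ifi206, Ifi207 and Ifi213 it could not be fitted. Ifi204 had 3 UMIs of 1397441 in R241E astrocytes (1.09 and 4.16 CPM) and 1 of 1110349 in WT astrocytes, whereas R241E microglia had 477 and 423 CPM. Fibroblasts, at 0 to 32.9 CPM for the whole family, also had no member past the filter.

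Across 42 sums of a class in a library with at least 20 nuclei, log2(CPM + 1) of 13972 genes was correlated with that of the family sum as a description; the sums share libraries, and classes differ in depth. The highest Pearson r among non-members were those of Pik3cd (0.916), Arhgap15 (0.910), Samhd1 (0.890), St8sia4 (0.882) and Fyb (0.881). Within the family, Ifi203 and Mndal were the most alike (r = 0.980), and Ifi203 and Aim2 the least (r = 0.301).

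The other genes of the pathways around the family were counted in microglia from lists, beside a median log2 fold change of -0.003 over all genes tested. Of all genes tested 5.77% were called higher and 3.17% lower. The lists were chosen with earlier results of these data known, so the counts called describe them and do not test them. Of 12 genes of the AIM2 inflammasome and its partners, 9 were tested, 4 were called higher and 1 lower, with a median log2 fold change of 0.19. Casp4, the mouse caspase-11 gene, which senses lipopolysaccharide, rose (log2 fold change 1.29, edgeR adjusted p = 2.78e-05), as did Casp1, the protease of the complex (0.88, 0.00303), and the sensor Nlrp1b (0.41, 0.00975). Nlrp3, another inflammasome sensor, fell by 0.71 on the log2 scale (edgeR adjusted p = 0.0111). The fourth called higher was the pore gene Gsdmd (0.43), named after its value was seen.

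Of 15 genes of cytosolic DNA sensing, 12 were tested, 3 were called higher and 0 lower, with a median log2 fold change of 0.26. They were Zbp1, a sensor of Z-form nucleic acid that passed the filter only through R241E (5.66, edgeR adjusted p = 1.95e-08), the nucleotide hydrolase gene Samhd1 (1.06, 2.06e-06) and the RNA-editing gene Adar (1.28, 2.62e-05). Ikbke had a log2 fold change of 1.21 (edgeR adjusted p = 0.103). Cgas itself was not called (log2 fold change 0.25, edgeR adjusted p = 0.267), and its level says nothing about the R241E change, which the counts cannot show.

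Of 15 genes of interferon receptor signalling, all tested, 7 were called higher and 0 lower, with a median of 0.35. Usp18 (3.97, edgeR adjusted p = 3.57e-11), Stat2 (2.35, 3.22e-09) and Irf7 (3.55, 1.41e-08) were among those called higher. Of 32 other interferon-stimulated genes 30 were in the files and all 30 were called higher, where 5.77% of all genes tested were. Of the 30, 8 passed the filter only through R241E, and the median log2 fold change was 3.06. This list too was chosen with earlier results known. Usp18, Stat2, Irf7 and Zbp1 are among the genes that stand in 2 of these lists. The smallest p were those of Nlrc5 (3.83), Usp18, Oasl2 (5.29) and Sp100 (3.06).

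Of 9 other genes of the PYHIN locus 3 were in the files and 1 was tested. Ifi214 was at 34.0 CPM in each R241E library against 9, 6 and 5 UMIs in WT microglia (at most 3.65 CPM, log2 fold change 4.05, edgeR adjusted p = 1.98e-07), through R241E alone past the filter, and it shares sequence with Ifi209. Of 40 genes within 1 Mb of the cluster in the files, 8 were tested in microglia and 3 were called higher, where 5.77% of all genes tested were. They were the potassium channel gene Kcnj10 (2.09, edgeR adjusted p = 0.00138, past the filter only through R241E) and the immune receptor genes Slamf8 (2.29, 2.29e-06) and Slamf9 (1.18, 0.0242).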

How the data were processed

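Nuclei of 5 libraries (2 R241E, 3 WT; groups and mouse numbers from the sample titles, no batch stated) were profiled with 10x 3′ chemistry. The authors deposited raw UMI counts per gene and nucleus, made with Cell Ranger 7.0.0 on mm10. The 9748 nuclei were filtered by the study's limits (at least 200 and under 4500 genes, under 10000 UMIs, under 5% mitochondrial UMIs), leaving 9505, and clustered with scanpy 1.11.5 (3000 variable genes without PYHIN genes, 30 principal components, 20 neighbours, Leiden resolution 1; 25 clusters). A cluster took a class name when 3 markers were detected in 10% of its nuclei and their mean log2 fold reached 1.5. The scoring rule was set after clusters had been seen, and the study's own set of microglia may not be the 5359 found here. Doublets were limited through the upper filters; Scrublet called 47 nuclei, too few for a working caller, so an alternative left out the 158 nuclei with the highest scores.

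Nuclei of 1 mouse are not replicates, so counts were added up over the nuclei of a class in each library and tested, where no library had under 20 nuclei of the class, with edgeR 4.0.16 (R 4.3.3; quasi-likelihood test, TMM, filterByExpr, genotype as the only term) and Benjamini-Hochberg adjustment over all genes tested; differences between classes used library as a block. P-values weigh an effect against a spread between these mice that edgeR estimates largely over all genes together. Very small values, as with the class by genotype term and the replicate block, therefore do not measure each gene's own spread between mice. The study tested single nuclei, which was not done here. Replicates differed beyond sampling noise. The scripts were tested on simulated counts. Single values used exact permutation tests, and 95% intervals of counts are exact. Alternatives included limma-voom (limma 3.58.1), DESeq2 1.42.0, other size factors, no filter, thinning, the replicate block and leaving out each library.

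All 10 members are named; from each pathway list the 4 genes with the smallest p in microglia, Cgas, the 5 genes most like the family sum, and the called neighbours. Not every gene that this rule names is reported here. The members and lists were chosen with earlier results of these data known. The alternative without marker-less microglia was chosen after seeing the data.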

Additional observations from a re-analysis of the deposited data

Results flagged for a closer look

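For 7 members the R241E effect on the log2 scale differed between microglia and border-associated macrophages by edgeR's class by genotype term. The effect was larger in microglia by 5.16 for Ifi207, 4.37 for Ifi211, 3.97 for Ifi213, 3.83 for Ifi204, 2.97 for Mndal, 2.70 for Ifi209 and 1.97 for Ifi206. For Mndal the microglial side rests on 17 UMIs in R241E and 2 in WT. The WT macrophage level of Ifi206 ranged from 5.75 to 120 CPM, on 22 UMIs in all.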

How the results depend on the processing

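In microglia, 8 members were called; this became 9 with the replicate block (adding Aim2), 6 with nuclei thinned to 1000 UMIs, where Mndal and Ifi208 were not tested, 7 without marker-less nuclei (723 genes higher and 389 lower there) and 7 to 8 with a library left out. The genes called higher (732) became 1205 with the replicate block, 446 with thinned nuclei and 379 to 932 with a library left out; those called lower (402) became 260 with DESeq2's Wald test, 804 with the replicate block, 229 thinned and 119 to 545. Members called in macrophages (3) became 1 with the Wald test, 5 without the filter, 1 without the highest Scrublet scores and 0 to 6 with a library left out. In neurons 1 member was called without the filter. Members with a larger effect in microglia than macrophages (7) became 3 to 6 with a library left out. The difference in shares (31.6 points) became 24.2 thinned to 500 UMIs and 24.7 for at least 2 family UMIs, and that in nuclei without other interferon-stimulated UMIs (2.15) became 3.53 thinned and 1.68 to 2.62 with a library left out.

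Signs turned for values that were not called. Aim2 in neurons, at -0.0018, became 0.0092 with limma-voom, 0.11 with the replicate block, 0.054 without the highest Scrublet scores, and -0.14 to 0.11 with a library left out. With a library left out, the microglia against macrophage difference of Ifi203 ran from -0.22 (without R241E replicate 2) to 3.52. Against astrocytes it ran from -0.98 to 3.91 (without R241E replicate 1) for Ifi209, from -0.26 (without R241E replicate 2) to 4.49 for Ifi208, which was -0.18 without WT replicate 1, and from -0.27 (without WT replicate 2) to 4.76 for Ifi204. The cause was not tested. Of single-gene values 381 kept direction and side of the threshold, 17 gained and 22 lost the threshold, and 11 reversed.

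The mouse numbers gave a replicate block, but the deviations of same-numbered mice correlated at 0.10 (mouse 1) and -0.02 (mouse 2) over 2 shared numbers, so the samples share only a number. In astrocytes, fibroblasts and neurons most members had a few UMIs, so folds there are imprecise.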

Other observations

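Ifi202b, a relative of the family with HIN domains and no pyrin domain that is known to restrain AIM2, was not among the 10 genes and was chosen after its values were seen. In border-associated macrophages it was lower in R241E, at 329 and 432 CPM against 758, 815 and 598 CPM in WT (log2 fold change -0.96 ± 0.20, edgeR adjusted p = 0.0172). The R241E libraries both lay below all WT libraries. No share of all genes lower in this class stands beside that result. Ifi202b was not fitted with a library left out, and the sequence it shares with other genes was not measured. Ifi205, another relative, overlapped between the genotypes in this class (log2 fold change -0.46, edgeR adjusted p = 0.931). In microglia Ifi202b had 0 UMIs in 4 libraries and 1 UMI in WT replicate 3.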
